A study of Drosophila melanogaster with 4 samples.

Results

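The loci of wingless (wg), decapentaplegic (dpp) and hedgehog (hh) were examined for monomethylation of histone H3 at lysine 36 (H3K36me1) in Drosophila melanogaster embryos. Each locus was taken as a window of 80 kb on FlyBase release 5, the build of the deposited files. The wg window was 2L:7270000-7350000, the dpp window 2L:2410000-2490000 and the hh window 3R:18920000-19000000. The members were the enriched regions that overlap these windows, whatever their score. They numbered 13 of 5434 regions in replicate 1, 12 of 4523 in replicate 2 and 21 of 8051 in a further list that covers the set of replicates (the combined list), or 46 of 18008 rows in all. All embryos were wild type, of the strain Oregon-R, at the stage of 14 to 16 hours. The series holds 2 H3K36me1 immunoprecipitates and 2 input samples of sheared chromatin, which served as background of the lists and were not analysed here by themselves. The labels name no separate embryo collections for the replicates, and what separates them may be only technical. Whole embryos were used, so a region seen here may come from some cells and not from others. The lists give no read numbers, so the depth behind a region is unknown. With 2 replicates of 1 condition no test between samples was possible, and every rank against other windows or regions is a description.

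These genes encode the secreted signals that pattern the fly embryo. Wg is a Wnt protein that acts through Frizzled receptors and the Armadillo protein, Dpp is a BMP protein that acts through type I and type II serine/threonine kinase receptors and Mad, and Hh acts through Patched, Smoothened and the transcription factor Ci. Wg and Hh are made in neighbouring rows of cells in each segment and sustain one another's expression, and Dpp sets dorsal fate in the early embryo and later acts in the gut and the appendage primordia. Methylation at lysine 36 is in general found over transcribed chromatin. In the fly the methyltransferases Set2, Ash1 and NSD act on this residue, and Ash1 is known for its part in keeping patterning genes active against Polycomb repression.

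All 3 windows held H3K36me1 regions, and the replicates marked a middling share of each window by the standard of its arm. The covered share was 12.9% in replicate 1 and 13.4% in replicate 2 at wg, 10.2% and 5.65% at dpp, and 20.4% and 8.73% at hh. As means these were 13.1% ± 0.319 at wg, 7.92% ± 3.22 at dpp and 14.6% ± 8.25 at hh (SD, n = 2 each). By value hh was highest and dpp lowest, but the hh and wg means were closer than the spread between the hh replicates, and replicate 2 put wg above hh. The wg and dpp values did not overlap between replicates, whereas the dpp and hh values did. The combined list covered 29.5% of the wg window, 16.5% of the dpp window and 30.4% of the hh window, more than either replicate at each locus. The same held over the whole arms. The combined list covered 25.4% of 2L and 25.5% of 3R. Replicates 1 and 2 covered 18.6% and 16.3% of 2L, and 19.2% and 16.6% of 3R.

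The 3 windows were set against all windows of 80 kb on the same arm, placed every 10 kb, so that neighbouring windows share sequence. On 2L the median covered share of all windows was 12.2% in replicate 1 and 9.36% in replicate 2, and on 3R it was 12.2% and 8.99%. For wg, 1117 of 2293 windows (48.7%) were covered as much or more in replicate 1 and 937 (40.9%) in replicate 2. At dpp, 1240 of the 2293 windows (54.1%) were covered as much or more in replicate 1 and 1353 (59.0%) in replicate 2. At hh, 995 of 2782 windows (35.8%) were covered as much or more in replicate 1 and 1412 (50.8%) in replicate 2. None of the 3 windows therefore stood far from the middle of its arm in either replicate. In the combined list the median covered share was 20.6% on 2L and 19.4% on 3R. Windows covered as much or more there made up 35.8% for wg, 56.4% for dpp and 35.5% for hh. Holding a region was itself common, since in replicate 1 at least 1 region lay in 79.2% of windows on 2L and 77.9% on 3R. The figures were 75.3% and 75.9% in replicate 2, and 85.8% and 83.0% in the combined list. No window of these genes was empty in any list.

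**Figure D1:**
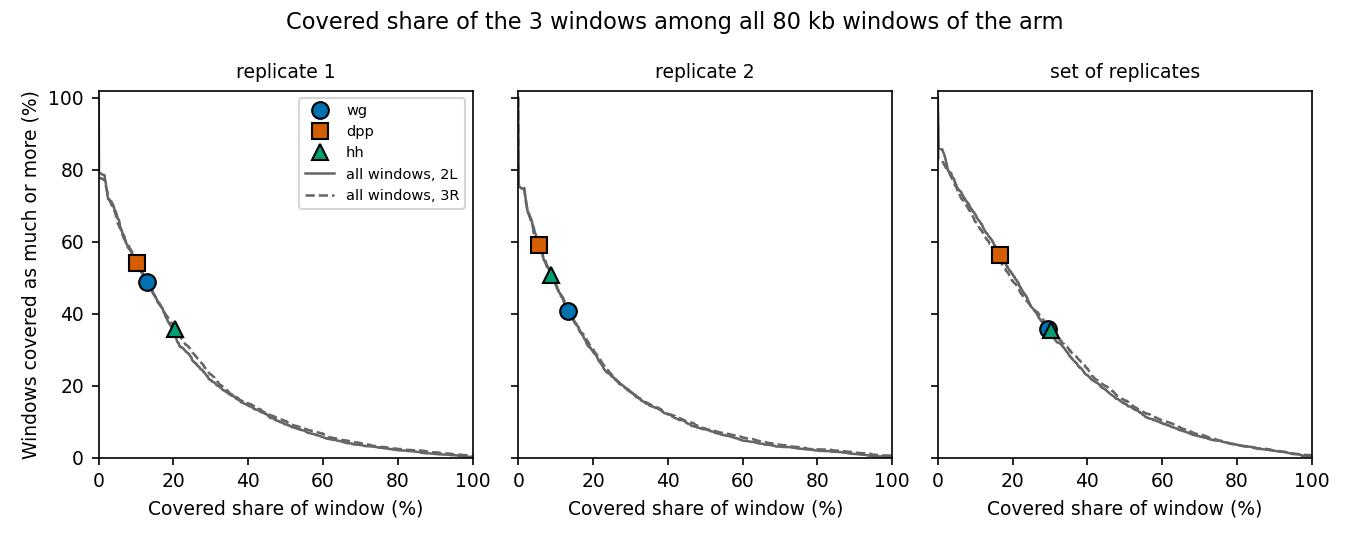
Each panel is 1 list and plots the covered share of an 80 kb window (x axis, percent) against the percent of windows on its arm that are covered as much or more (y axis), with wg, dpp and hh as symbols and all windows of 2L and 3R as lines. All 3 symbols lie on the middle part of the curves, between 35.5% and 59.0% on the y axis.

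By the number of regions, wg stood further up its arm than by covered share in replicate 2 and the combined list, and only slightly so in replicate 1. The wg window held 4 regions in replicate 1, 6 in replicate 2 and 9 in the combined list, against arm medians of 3, 2 and 5. As many or more were found in 43.7%, 18.1% and 19.8% of the windows on 2L. The 6 and 9 include a region that crosses the window edge, with 430 of 2037 bp and 360 of 1986 bp inside. Regions that cross an edge were counted in all windows alike. The dpp window held 4, 2 and 5 regions, and the hh window held 5, 4 and 7. As many or more were found in 43.7%, 62.7% and 54.3% of windows for dpp, and in 33.3%, 35.98% and 34.7% for hh. None of the 46 regions reached 10 kb, a length that 8.08%, 8.58% and 7.08% of all regions reached in the 3 lists. Few of 13, 12 and 21 members would be that long at these shares, so their absence is not read as a trait. The longest member had 8323 bp, at wg in the combined list, where 8.99% of regions were as long or longer. It is the longest of 21 members of that list, so this rank is not read as a trait either. The median length at the 3 loci was 2052 bp in replicate 1, 1928 bp in replicate 2 and 2002 bp in the combined list, against 2212, 2258 and 2026 bp over the whole lists.

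**Figure D2:**
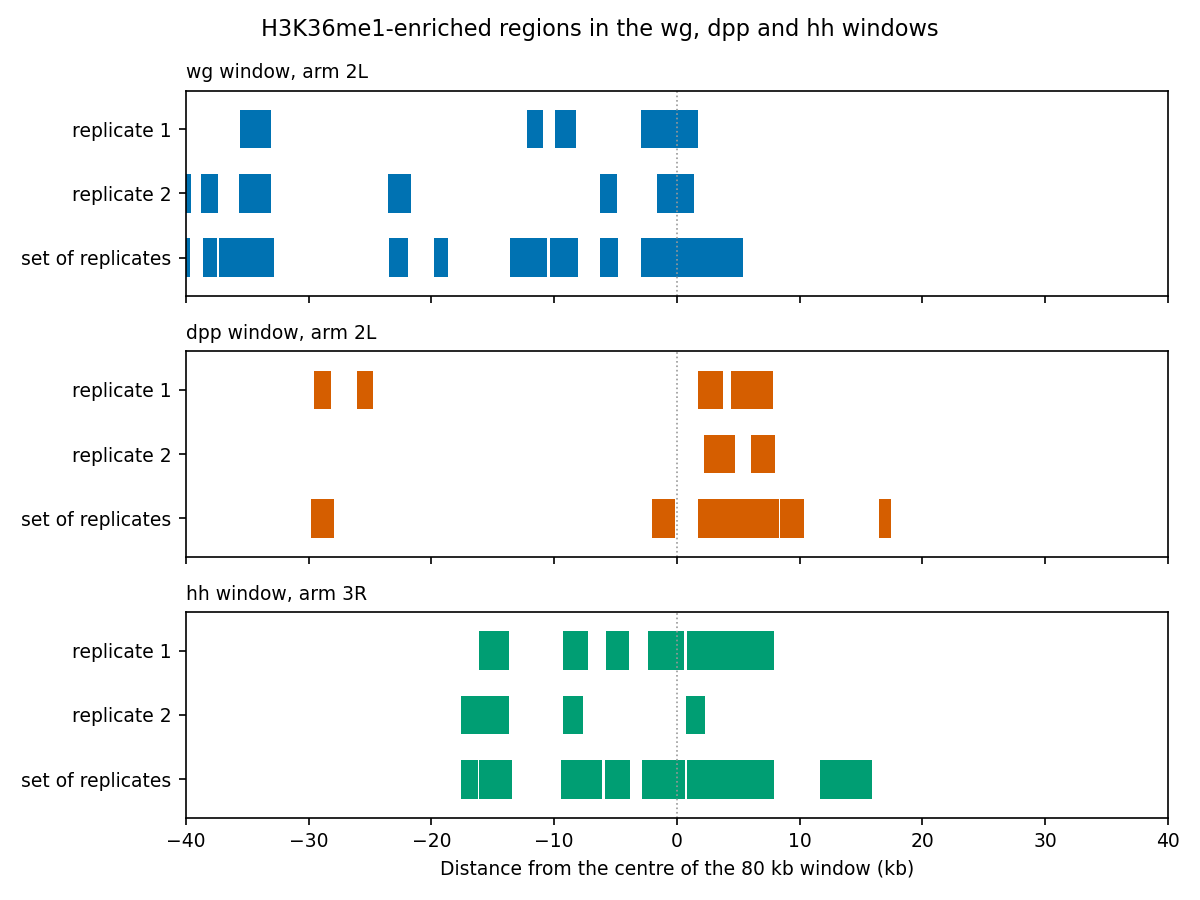
Bars are the enriched regions of each list (rows) across the 80 kb windows of wg, dpp and hh (panels), placed by distance from the centre of the window in kb, with lower coordinates on the left and the dotted line at the centre. Regions with only a few bases between them may appear joined, and in both replicates the right side of the wg and hh windows is empty beyond 1.76 kb and 7.94 kb.

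At wg the regions lay in the lower-coordinate part of the window, up to and over its centre. Regions took up 21.4% (replicate 1) and 23.2% (replicate 2) of the side before the centre, and 4.41% and 3.56% of the side after it. The central region ran from 7307072 to 7311765 in replicate 1, 4694 bp long, and from 7308350 to 7311424 in replicate 2, 3075 bp long. It contained the centre of the window in both replicates and in the combined list. The centre lay in a region in 18.2% of windows on 2L in replicate 1, 16.0% in replicate 2 and 24.8% in the combined list. The start differed by 1278 bp between the replicates and the end by 341 bp. In the combined list the region ran from 7307107 to 7315429, and so ended 3664 bp after that of replicate 1 and 4005 bp after that of replicate 2. At 8323 bp it was the longest region of any list at the 3 loci.

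The other region of wg found in both replicates lay 33 to 36 kb before the centre, and its edges matched closely. It ran from 7274379 to 7276923 in replicate 1 and from 7274350 to 7276913 in replicate 2. The starts differed by 29 bp and the ends by 10 bp, against medians of 374.5 and 384.5 bp over the 778 overlapping pairs on 2L. For the central region the start differed by more than the median and the end by less. The combined list began this region 1636 bp before replicate 1, at 7272743. Between it and the central region, the replicates marked different places. Replicate 1 alone had regions from 7297763 to 7299121 and from 7300062 to 7301794. Replicate 2 alone had regions from 7286511 to 7288351 and from 7303728 to 7305107, and a further pair near the lower edge of the window, from 7268393 to 7270429, which crosses the edge, and from 7271223 to 7272624. The combined list had a region at each of these 6 places, and 1 more, from 7290261 to 7291331, that overlapped neither replicate.

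At dpp the regions found in both replicates lay together in a stretch of about 6 kb just after the centre. Replicate 1 had regions from 2451721 to 2453772 and from 2454454 to 2457875, with 681 bp between them. Replicate 2 had regions from 2452245 to 2454747 and from 2456022 to 2458036, with 1274 bp between them. The interruptions fell at different places, and the replicates together covered 6316 bp without a break. In overlapping pairs here the starts differed by 524 to 2209 bp and the ends by 161 to 3128 bp. The medians on 2L were 374.5 and 384.5 bp. The combined list had a single region here, from 2451725 to 2458294, 6570 bp long. The centre of the dpp window itself lay in no region of any list. Of the 10 kb after the centre, 54.7% lay in regions of replicate 1, 45.2% in those of replicate 2 and 81.5% in those of the combined list.

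Outside that stretch the replicates marked little of the dpp window, and the combined list marked more. Replicate 2 had no region before the centre, and 0% of that side was covered. Replicate 1 had a pair of short regions there, from 2420469 to 2421823 and from 2423912 to 2425238. The second of these, 1327 bp long with a score of 0.56, overlapped neither replicate 2 nor the combined list. Only 2 of the 970 regions of replicate 1 on 2L (0.206%) had no counterpart in the combined list, and this was 1 of them. The share was 0.173% for the 3R regions of replicate 1, and for replicate 2 it was 1.71% (2L) and 0.822% (3R), and no other region at the 3 loci lacked a counterpart. The combined list added 3 regions of 1868, 1949 and 1018 bp that overlapped neither replicate. They ran from 2447955 to 2449822, from 2458425 to 2460373 and from 2466463 to 2467480. The second began after a gap of 130 bp from the stretch.

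At hh the regions formed a cluster about the centre, dense in replicate 1 and sparse in replicate 2. Replicate 1 had 5 regions between 18943928 and 18967939, of 2407, 2046, 1849, 2935 and 7076 bp in order of position. Replicate 2 had 4 between 18942461 and 18962277, of 1394, 2491, 1590 and 1508 bp. Regions took up 69.5% of the central 20 kb in replicate 1 and 15.5% in replicate 2. The centre lay in a region in replicate 1 and in the combined list, and not in replicate 2, where the centre was covered in 16.6% of windows on 3R. The corresponding shares of windows on 3R were 19.0% in replicate 1 and 25.6% in the combined list.

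The largest difference between the replicates at hh was the region after the centre. It ran from 18960864 to 18967939 in replicate 1 and from 18960770 to 18962277 in replicate 2. The starts lay 94 bp apart and the ends 5662 bp apart, and only 20.0% of the region of replicate 1 was covered by that of replicate 2. The combined list followed replicate 1, with a region from 18960855 to 18967925 whose edges lay 9 and 14 bp from it. Replicate 1 also had the regions from 18954241 to 18956089 and from 18957627 to 18960561, which had no counterpart in replicate 2. Replicate 2 alone had the region at the lower end of the cluster, from 18942461 to 18943854. Next to it the replicates matched, with a region from 18943928 to 18946334 in replicate 1 and from 18943863 to 18946353 in replicate 2. Those edges differed by 65 and 19 bp, against medians of 344 and 319 bp over the 927 overlapping pairs on 3R. A further pair ran from 18950709 to 18952754 in replicate 1 and from 18950770 to 18952359 in replicate 2. Its starts differed by 61 bp and its ends by 395 bp. The ends of this pair and of the region after the centre differed by more than the median.

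After the cluster, the combined list had a region of 4253 bp at hh, from 18971657 to 18975909, that overlapped neither replicate. Of the 600 regions of that list on 3R that overlapped neither replicate, 2 (0.333%) were as long or longer, this one included, and their median length was 1372 bp. Its score of 0.45 ranked 4318 of 8051 in the list. By length it ranked highest of the 5 regions of the combined list at the 3 loci that overlapped neither replicate. Among such regions on 2L, 84.3% were as long or longer for wg, and 15.9%, 12.1% and 92.7% for the regions of dpp. The way in which the combined list was made is not stated in the labels or the files.

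The replicates matched less well at these loci than in most windows of the arms. The length shared by the replicates was 5.61 kb of 15.4 kb marked in either at wg, 3.68 of 9.00 kb at dpp and 5.41 of 17.9 kb at hh. The ratio of shared length to length in either replicate (Jaccard index) was thus 0.364 at wg, 0.409 at dpp and 0.303 at hh, against medians of 0.633 on 2L and 0.657 on 3R. The index was as low or lower in 18.4% of the 1832 windows on 2L that held any region for wg, in 23.5% of them for dpp, and in 13.6% of 2210 windows on 3R for hh. To compare windows of like coverage, the windows of an arm were split into 4 classes of 25% each by the length marked in either replicate. In the class of each locus the median index was 0.555 for wg and dpp and 0.655 for hh. The index was as low or lower in 19.4% of these windows for wg, 28.3% for dpp and 2.17% of 552 windows for hh. Windows that overlap a locus were kept in all these shares. At dpp and hh some of them held exactly the regions of the locus window, and so counted the same index again. At hh such repeats made up a large part of the windows behind the 2.17%, so that share is not a rank among separate windows.

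**Figure D3:**
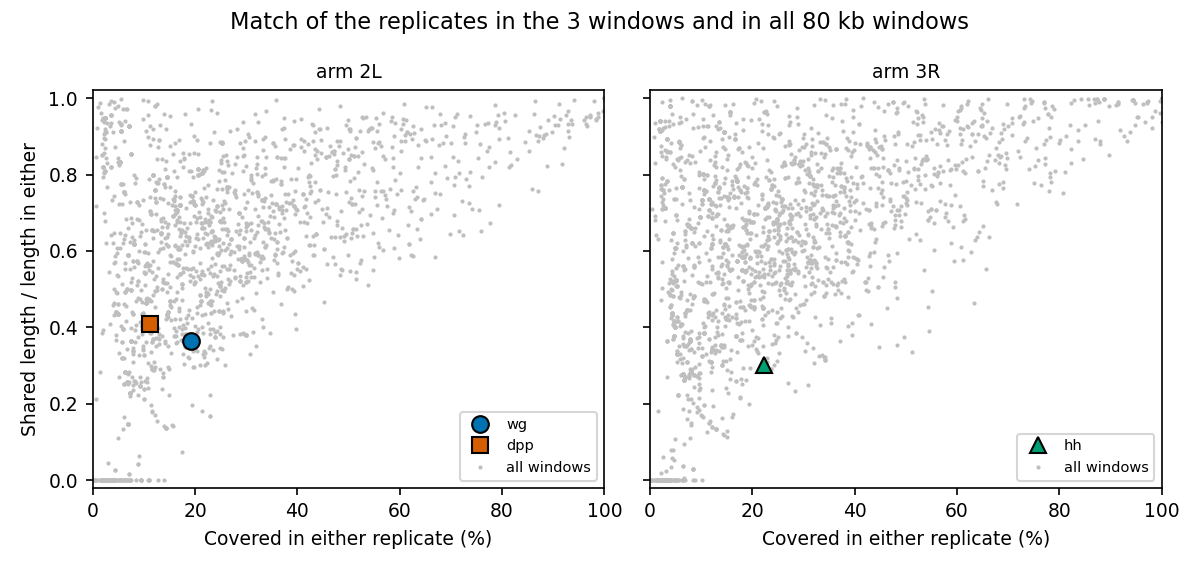
Each panel is 1 arm and plots, for every 80 kb window with a region in either replicate (dots), the percent of the window covered in either replicate (x axis) against the shared length divided by the length in either (y axis). The wg, dpp and hh windows lie at 0.364, 0.409 and 0.303 on the y axis, in the lower part of the dots.

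The direction of the difference was not the same at all loci. Replicate 2 minus replicate 1 was 0.451 percentage points of the window at wg, -4.55 at dpp and -11.7 at hh. The median over windows was -1.61 on 2L and -1.46 on 3R. A difference as large in size was found in 69.7% of windows for wg and 23.4% for dpp. At hh it was found in 3.13% of the windows on 3R. So wg was covered to nearly the same extent by regions that in part lay elsewhere, and at hh replicate 2 marked less.

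In counts, 2 of 4 regions of wg, 2 of 4 of dpp and 3 of 5 of hh in replicate 1 overlapped replicate 2, where 69.4% of the regions on either arm did. In replicate 2, 2 of 6, 2 of 2 and 3 of 4 overlapped replicate 1, where 84.4% did on 2L and 88.3% on 3R. Of the 21 regions in the combined list, 6 overlapped both replicates, 5 replicate 1 only, 5 replicate 2 only and 5 neither. Over all regions of that list on 2L, 38.8% overlapped both, 18.3% replicate 1 only, 6.67% replicate 2 only and 36.2% neither. On 3R these shares were 40.9%, 17.9%, 5.63% and 35.6%. No test was run on these counts, which rest on few regions per locus.

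Around the clusters lay long stretches with no region, and those after wg and hh reached well past the windows. After the central region of wg, no region was found for 100.4 kb in replicate 1 and 108.1 kb in replicate 2. These were number 53 of 969 gaps on 2L in replicate 1 and number 51 of 817 in replicate 2, in order of length. The median gap on the arm was 3.73 kb in replicate 1 and 4.28 kb in replicate 2. After the cluster of hh, no region was found for 109.0 kb in replicate 1 and 78.9 kb in replicate 2, which ranked 50 of 1150 and 87 of 970 on 3R. Before the hh cluster the gap was 56.0 kb in replicate 1 and 54.8 kb in replicate 2. At dpp the stretch of regions was followed by a gap of 35.0 kb in both replicates. Before it, replicate 2 had no region for 67.7 kb, while replicate 1 had gaps of 26.5 and 36.02 kb about its pair of short regions. In the combined list the gap after wg was 66.8 kb and that after hh 65.2 kb. Whether reads can be mapped throughout these stretches was not analysed here.

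Counted only up to the edges of the window, the uncovered stretches were no longer than in most windows of the arm. The longest was 38.2 kb in replicate 1 and 38.6 kb in replicate 2 at wg, 32.1 and 42.2 kb at dpp, and 32.1 and 37.7 kb at hh. The arm medians were 46.4 and 50.7 kb on 2L and 45.6 and 49.3 kb on 3R. A stretch as long or longer was found in 60.6% and 66.0% of windows for wg, 70.0% and 60.7% for dpp, and 67.9% and 65.2% for hh. The 80 kb next to the windows were covered to 18.4% and 20.3% before wg and to 7.21% and 3.07% after it, in replicates 1 and 2. They were covered to 14.7% and 7.38% before dpp and 3.51% and 3.35% after it, and to 11.9% and 3.68% before hh and 2.80% and 4.42% after it. In both replicates the 80 kb before wg and those before dpp thus held more marked sequence than the windows of these genes, and those before hh held less.

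Scores at the 3 loci were of middling rank. The score is the authors' own value per region. Neither the labels nor the files state its scale, so scores are ranked within a list only. Of the members, 5 of 13 in replicate 1, 5 of 12 in replicate 2 and 10 of 21 in the combined list lay in the upper part of their list, which holds 50.0%, 50.1% and 50.0% of all regions. The highest was the second region of the dpp stretch in replicate 1, from 2454454 to 2457875, with a score of 0.86 and rank 913 of 5434. In replicate 2 it was the hh region from 18943863 to 18946353, with a score of 0.92 and rank 932 of 4523. In the combined list it was the 6570 bp region at dpp, with a score of 0.72 and rank 1142 of 8051. No member was among the highest-scoring regions of its list, whose scores reached 2.35, 3.85 and 3.45.

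The region that scored highest at a locus was not the same in both replicates throughout. At wg the region 33 to 36 kb before the centre scored 0.72 in replicate 1 (rank 1611) and 0.74 in replicate 2 (rank 1980), and the central region scored 0.68 (rank 1964) and 0.82 (rank 1437). The order of these regions was thus opposite in the replicates. At hh the 7076 bp region after the centre scored highest in replicate 1, at 0.75 (rank 1465), and the region that begins at 18943928 scored 0.61 (rank 2726). In replicate 2 the region that overlaps it, from 18943863, scored 0.92 and the shorter region after the centre 0.83 (rank 1367). At dpp the first region of the stretch scored 0.58 (rank 3244) in replicate 1 and the second 0.86, against 0.77 (rank 1731) and 0.63 (rank 3196) in replicate 2. The 6 regions found in replicate 1 alone scored between 0.44 and 0.57, against a median of 0.61 over that list. The 5 found in replicate 2 alone scored between 0.48 and 0.67, against a median of 0.71. These medians include longer regions, and most of the regions found in 1 replicate alone were shorter than the median length of their list. Among regions within 10% of the length of each, 21.3% to 84.5% scored as high or higher in replicate 1. In replicate 2 these shares ran from 45.5% to 90.8%.

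**Figure D4:**
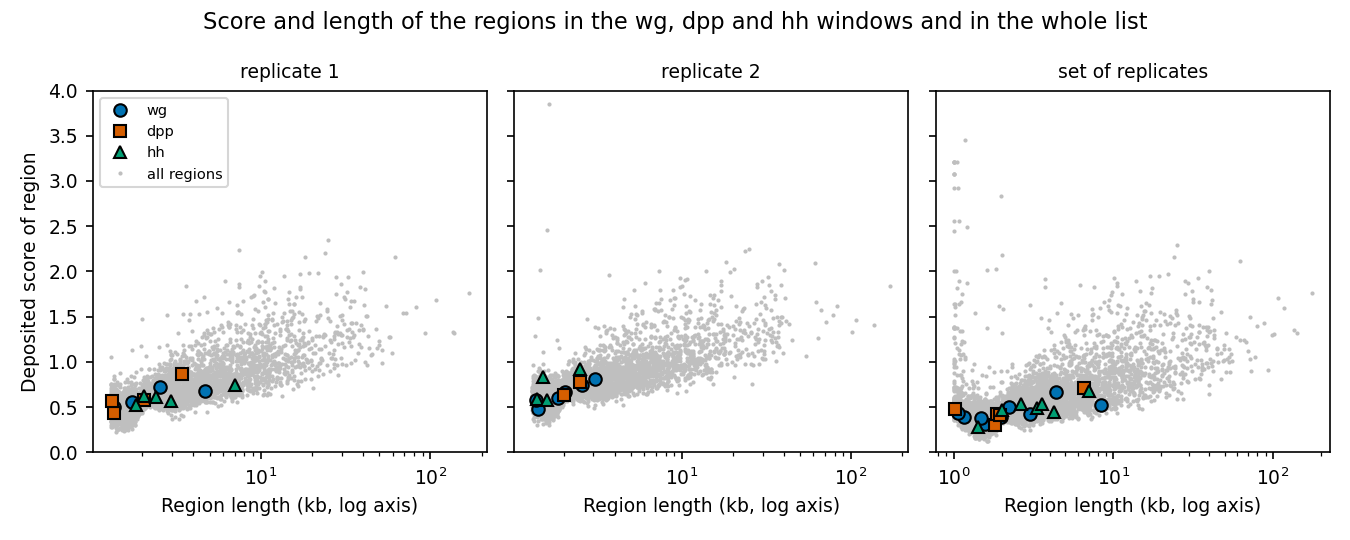
Each panel is 1 list and plots the length of every region in kb (x axis, log scale) against its deposited score (y axis), with the regions in the wg, dpp and hh windows as symbols and all regions of the list as dots. The symbols lie within the bulk of each cloud, and all are below a length of 10 kb and a score of 1.

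Longer regions carry higher scores in the plot of score and length, so each member was also ranked among regions of its list within 10% of its length. By that measure the hh region after the centre in replicate 2 had the highest rank of all 46 members. Of 841 regions of like length, 2.85% scored as high or higher. This is 1 rank picked as the most extreme of 46, for a region of 1508 bp that was far longer in the other lists. The hh region from 18943863 to 18946353 in replicate 2 followed, with 9.76% of 410. The long hh region of replicate 1 at the same place lay low, with 74.3% of 179 regions of like length at or above it. Its counterpart in the combined list lay in the middle, with 52.9% of 225. The central wg region also lay low in replicate 1 (72.9% of 291) and not in replicate 2 (34.8% of 379). The 8323 bp region at wg in the combined list lay low as well, with 88.7% of 168 regions at or above it.

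Where the transcripts of wg, dpp and hh lie within these windows was not analysed here. The available gene table uses release 6, which is not the build of the files, and positions were not converted between them. No region is therefore assigned to a promoter, exon or intron. By the order of genes in that table, wg stands next to other Wnt genes, with Wnt4 among the 3 genes before it and Wnt6 and Wnt10 among the 3 after it. A region in the wg window therefore need not belong to wg. The genes next to hh in that order are CG31457 and unk, and those next to dpp are lncRNA:CR44912 and tRNA:Tyr-GTA-1-2. Receptors and targets of the 3 pathways were not placed for the same reason.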

How the data were processed

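Chromatin of crosslinked Oregon-R embryos was immunoprecipitated for H3K36me1, per the labels' protocols, and the submitters' processing notes name Bowtie 0.12.7, a short-read aligner. The authors deposited 1 list of enriched regions for each of the 2 immunoprecipitated replicates, called with its own input per the labels, and 1 list that covers the set of replicates (the combined list). Each deposited region has a score. Positions are on FlyBase release 5, per the file headers. The caller, its threshold, the scale of the score and the way of combining replicates are stated neither in the labels nor in the files. The wg, dpp and hh windows, and the list of pathway genes, were chosen with earlier results of these data known.

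Covered length, gaps and ranks were computed with Python 3.11.15, NumPy 2.4.6 and pandas 2.3.3, with positions counted from 1 and both ends included. Figures were drawn with matplotlib 3.10.9. Windows started every 10 kb so that each locus window was 1 of them. All regions that overlap the windows were named, with the 3 nearest genes on each side by order. The code was tested on simulated intervals. No test across samples was run, and the depth is unknown. Alternatives were each replicate alone, the combined list, sequence in both replicates, only the 50% of regions with the higher scores, joining of neighbouring regions with gaps under 1000 bp, other window widths and spacing, and leaving out windows that overlap the locus.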

Additional observations from a re-analysis of the deposited data

How the results depend on the processing

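Of 39 alternative values other than those that leave out a replicate, 21 stayed within 1 SD of the replicates and 18 moved further. The SD of the covered share was 0.319 at wg, 3.22 at dpp and 8.25 at hh. The counts therefore depend on how closely the replicates matched at each locus. A share of 14.2% at wg on merging counted as moved, and 6.76% at hh for sequence in both replicates did not. With 2 replicates, leaving out either cannot move a mean share by more than 1 SD. The covered share as a mean of the replicates was 13.1% at wg, 7.92% at dpp and 14.6% at hh. It ranged from 12.9% to 13.4%, from 5.65% to 10.2% and from 8.73% to 20.4% when 1 replicate was left out. In the combined list it was 29.5%, 16.5% and 30.4%. Sequence in both replicates came to 7.01% at wg, 4.59% at dpp and 6.76% at hh, and the higher-scoring 50% of each list to 8.05%, 3.70% and 8.20%, both smaller by construction. Merging gave 14.2% at wg. The percent of windows covered as much or more was 45.4% for wg, 55.8% for dpp and 42.8% for hh. It ranged from 40.9% to 48.7%, from 54.1% to 59.0% and from 35.8% to 50.8% when 1 replicate was left out. For wg it was 35.8% in the combined list. It depended most on window width, at 35.4%, 39.4% and 22.3% with 40 kb windows and 67.1%, 64.6% and 62.4% with 160 kb windows. With 20 kb windows, a setting chosen after seeing the data, the values were 23.1%, 24.97% and 15.6%. Non-overlapping windows, and leaving out windows that overlap the locus, moved none of these ranks by more than 1 SD. No paired analysis was possible because only 1 group, the immunoprecipitates, has values here. Read numbers are unknown, and their part in the calling of the shortest regions was not tested.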
